A study of Mus musculus with 12 samples.

Results

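Peroxisomes are organelles that shorten very long chain and branched fatty acids, make ether lipids and bile acid intermediates, and hold the oxidases whose hydrogen peroxide catalase removes. Described here are 41 genes of the mouse liver peroxisome: 13 peroxins, the proteins that build the organelle, 5 proteins of its membrane, among them 3 transporters, and 23 enzymes and proteases that work in or on it. The genes were taken by symbol from a list drawn up by function, with earlier results of these data known. Each is represented by the transcript cluster, a group of short array probes summarised together, with the highest mean over all animals. All 41 were found among the 22850 clusters tested, each through a cluster that carries its symbol alone.

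The values come from livers of female C57Bl/6 mice aged 12 to 14 weeks, 6 wild type (WT) and 6 with a knockout of Ppara (Ppara KO). Each mouse gave 1 array of the Affymetrix MoGene-2_0-st design, and the animals are numbered 1 to 6 within a genotype. The mice lived in alternating light and dark of equal length, and the sources used here name no drug, diet, fasting state or hour of collection. Nor do they name the allele, the cell types in which the gene is disrupted, or whether the WT mice were littermates.

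PPARα, the product of Ppara, is a nuclear receptor that fatty acids and fibrate drugs activate, and in rodent liver its activation makes peroxisomes multiply. It binds DNA together with RXR at direct repeats of AGGTCA spaced by a single base (DR1 elements). Peroxins divide the work: some insert membrane proteins, others import matrix enzymes, and the PEX11 proteins elongate and divide the organelle. Very long chain and branched acyl-CoAs enter through transporters of the ABCD family, and a chain of oxidase, bifunctional enzyme and thiolase then shortens them.

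Expression of the peroxisomal genes differed between the genotypes in part of the list. In Ppara KO livers 13 of the 41 genes fell and 2 rose, at an adjusted p under 0.05 (limma, a linear model over all clusters, with Benjamini-Hochberg adjustment). Over all 22850 clusters tested, 5.83% fell and 4.58% rose, and 10.4% were called in either direction. The share of members that fell was 31.7%, and the share that rose, 4.88%, was close to the background. All 41 members lie at or above the median level of the clusters, and among the 11425 clusters of that kind fitted alone 13.9% fell and 11.5% rose. In that fit 15 members fell and 3 rose.

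The largest differences sat in the membrane. Abcd2, a transporter of very long chain acyl-CoAs, was 4.29-fold lower in Ppara KO, and Pxmp4, a peroxisomal membrane protein, was 2.93-fold lower. The enzyme genes Hacl1 and Hsd17b4 were 1.67-fold and 1.56-fold lower, and the peroxin gene Pex16 was 1.56-fold lower. These 5 were the members that changed at least 1.5-fold, in a background where 1.54% of clusters fell and 0.77% rose by that much. No member rose by that much (limma), and Uox, the urate oxidase gene, rose most among those called, 1.38-fold.

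The calls were spread unevenly over the 3 classes. Of 5 membrane proteins 3 fell, of 23 enzymes and proteases 8 fell and 2 rose, and of 13 peroxins 2 fell and 0 rose (at an unadjusted p under 0.05, 6 peroxins were lower and 2 higher). Median log2 differences, given as Ppara KO minus WT throughout, were -0.28 for the membrane proteins, -0.08 for the enzymes and -0.15 for the peroxins, against 0.0096 over all clusters. The difference between classes was not tested. Nor was any of the smaller groups of genes counted below, for which the same background shares apply to the adjusted calls. Counts at an unadjusted p under 0.05, here and below, have no background beside them. The share of all clusters at that limit was not counted, and it is larger than the adjusted shares. Without WT 1, or without WT 3, 8 members fell instead of 13, and enzymes fell in 4 cases instead of 8. The enzyme count was 5 without any of Ppara KO 1, 3, 5 or 6.

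**Figure D1:**
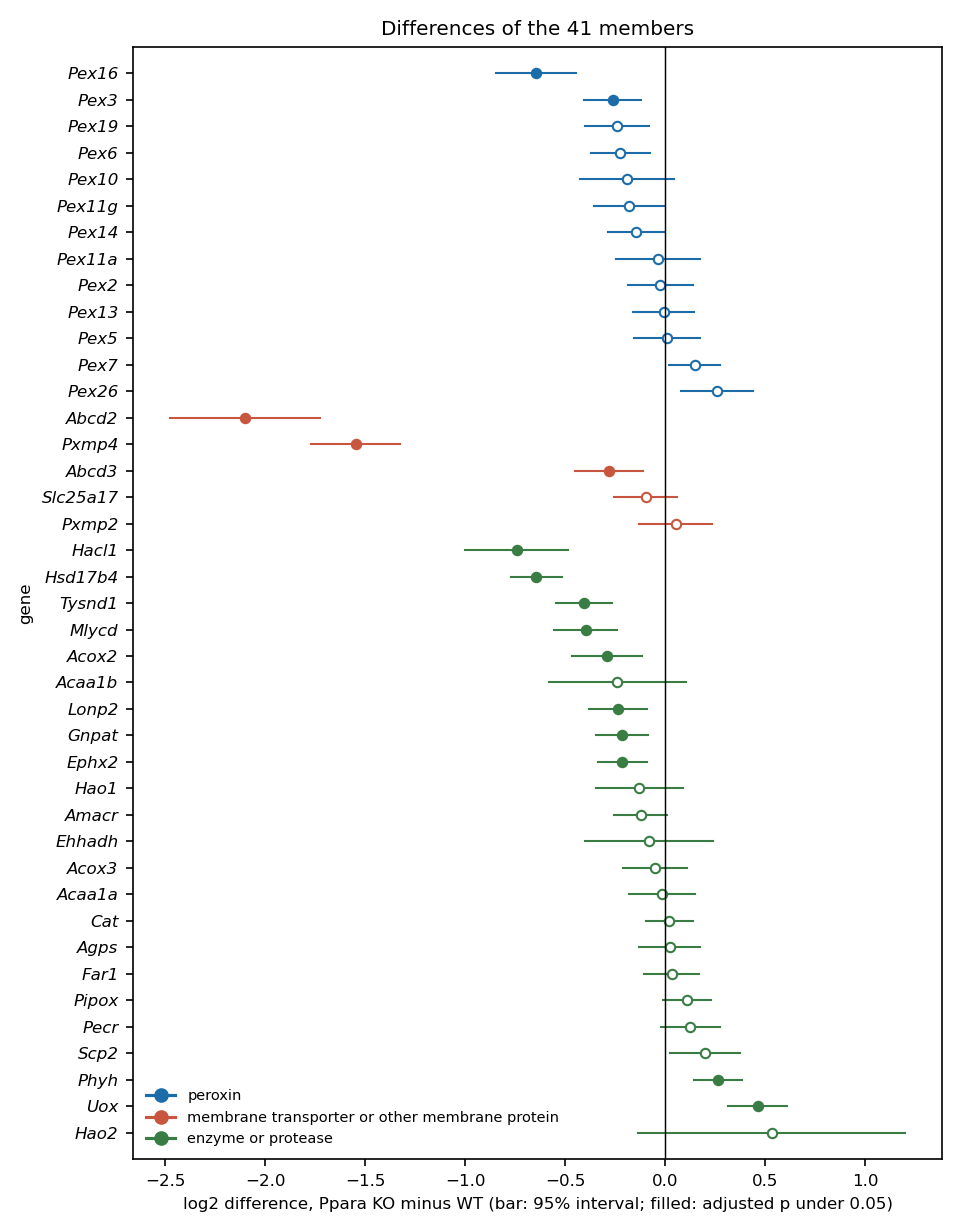
Log2 difference, Ppara KO minus WT, of each of the 41 members with its 95% interval (limma, 6 against 6 animals), in blue for peroxins, red for membrane proteins and green for enzymes and proteases; filled points passed an adjusted p of 0.05. Abcd2 (-2.10) and Pxmp4 (-1.55) stand far to the left, and the peroxins run from Pex16 (-0.65) to Pex26 (0.26).

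Several facts of the whole set of arrays stand beside these counts. Ppara itself was not called, with WT animals at 7.71 to 8.14 and Ppara KO animals at 7.81 to 8.16 (difference 0.032, limma adjusted p 0.880). The sources used here do not say where its probes lie relative to the disruption. None of 10 hepatocyte markers was called (limma, 0 also at an unadjusted p under 0.05), and their mean lay between 11.88 and 11.91 in the WT animals and between 11.88 and 11.97 in the Ppara KO animals. In bulk liver, fewer cells of a type and less RNA per cell cannot be told apart. Circadian clock genes differed in 13 of 13 cases, 4 of the BMAL1 side lower and 9 E-box driven ones higher, so genotype and clock state cannot be told apart for any member.

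Markers of other cell types were read in the same way. Of 9 adipocyte markers 2 fell, 7 were lower at an unadjusted p under 0.05, and all 9 differences were negative, with a median of -0.58. Their mean log2 value was 5.07, 5.87 and 5.77 in WT 1, 3 and 5, 4.30 to 4.54 in the other WT animals and 4.13 to 4.39 in the 6 knockouts. With WT 1, 3 and 5 left out together 7 members fell, Pex16, Abcd2, Pxmp4, Hsd17b4, Hacl1, Mlycd and Tysnd1, and 1, Uox, rose. Abcd2, which adipose tissue also expresses, was 8.86, 8.81 and 8.96 in WT 1, 3 and 5 and 8.95, 8.88 and 9.12 in WT 2, 4 and 6. Among 7 Kupffer cell and macrophage markers 1, Cd5l, rose (0.45 ± 0.13, called in 13 of 23 refits), 3 were higher at an unadjusted p under 0.05, with list means between 7.21 and 7.64 (WT) and between 7.53 and 8.30 (Ppara KO). Marco, which was not called (0.72 ± 0.27, adjusted p 0.109), had 6.04 to 6.22 in WT, all below the Ppara KO values of 6.28 to 8.39. Of 4 cholangiocyte markers 2 fell, Krt19 and Sox9, with list means of 4.69 to 5.05 and 4.5 to 5.02. The part of the macrophage and cholangiocyte markers in the results was not tested. By limma 0 of 6 endothelial, 6 stellate, 4 lymphocyte and 6 kidney tubule markers were called, with 3 endothelial markers lower and 1 stellate marker higher at an unadjusted p under 0.05.

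Promoter windows were read for the members from RefSeq (GRCm38.p6), from 250 bases before to 50 after each annotated start. They were found for 34 of the 41 genes, in 41 windows, and not used for Pex2, Pex19, Abcd2, Pxmp2, Hsd17b4, Amacr and Ephx2. Shown are the 250 bases before the start for the called genes with a window that fell or rose most in their class, Pxmp4, Hacl1, Pex16 and Uox. The same stretch is shown for Cat, which holds a DR1-like match, and Gnpat, which holds an E-box. Capitals mark those matches, and each strand is that of the gene, read 5′ to 3′. For Acox2 only the match and 8 bases on each side are given, and the match begins 10 bases after an annotated start.
Pxmp4 (chr2:154603674-154603923, minus strand): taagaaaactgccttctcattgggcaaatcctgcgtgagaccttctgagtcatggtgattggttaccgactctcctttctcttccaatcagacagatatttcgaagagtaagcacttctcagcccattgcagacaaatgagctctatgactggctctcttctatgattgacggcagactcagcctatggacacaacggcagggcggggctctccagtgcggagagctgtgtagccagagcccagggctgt
Hacl1 (chr14:31640966-31641215, minus strand): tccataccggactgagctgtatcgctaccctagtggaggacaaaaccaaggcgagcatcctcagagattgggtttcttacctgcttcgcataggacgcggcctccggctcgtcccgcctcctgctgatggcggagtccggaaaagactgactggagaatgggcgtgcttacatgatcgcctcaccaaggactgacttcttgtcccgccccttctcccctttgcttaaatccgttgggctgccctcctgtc
Pex16 (chr2:92374426-92374675, plus strand): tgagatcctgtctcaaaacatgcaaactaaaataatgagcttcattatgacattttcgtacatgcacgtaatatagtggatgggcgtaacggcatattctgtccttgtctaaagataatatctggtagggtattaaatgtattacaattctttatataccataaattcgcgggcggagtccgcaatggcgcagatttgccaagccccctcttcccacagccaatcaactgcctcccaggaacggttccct
Uox (chr3:146596899-146597148, plus strand): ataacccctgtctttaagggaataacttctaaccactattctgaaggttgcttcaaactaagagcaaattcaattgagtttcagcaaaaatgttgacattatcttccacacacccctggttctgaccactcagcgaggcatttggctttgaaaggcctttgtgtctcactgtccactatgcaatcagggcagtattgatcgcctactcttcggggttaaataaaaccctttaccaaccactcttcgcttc
Gnpat (chr8:124862783-124863032, plus strand): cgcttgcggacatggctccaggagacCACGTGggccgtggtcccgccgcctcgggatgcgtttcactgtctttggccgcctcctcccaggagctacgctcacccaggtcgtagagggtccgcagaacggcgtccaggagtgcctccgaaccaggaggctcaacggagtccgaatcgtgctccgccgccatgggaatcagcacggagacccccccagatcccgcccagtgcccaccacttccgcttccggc
Cat (chr2:103485154-103485403, minus strand): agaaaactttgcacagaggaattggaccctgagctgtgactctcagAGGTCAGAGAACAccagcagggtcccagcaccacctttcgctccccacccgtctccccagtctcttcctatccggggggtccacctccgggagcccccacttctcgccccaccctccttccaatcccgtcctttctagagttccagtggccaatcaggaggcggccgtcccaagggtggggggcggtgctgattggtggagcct
Acox2 (chr14:8258810-8258838, minus strand): gctgtcccAGGACAGAGGTGAgtcaagag

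These windows were searched on both strands for AGGTCANAGGTCA with up to 2 mismatches, N being any base. Of the 41 member windows 2 held such a DR1-like match (4.88%), against 3.86% of all 32851 windows of the same length. The match in the Cat window begins at position -204 relative to the start and reads AGGTCAGAGAACA, and the Acox2 match reads AGGACAGAGGTGA. Cat was not called and Acox2 fell, while Pxmp4, Hacl1, Pex16 and Uox hold no such match in the window. The bare AGGTCA, which overlaps the Cat match, was present in 4 member windows (9.76%) and in 16.3% of all windows. The clock E-box CACGTG was present in 2, those of Lonp2 and Gnpat (4.88%, against 7.15% of all). TATAAA, like AGGTCA searched on both strands, was present in 3, in the windows of Pex16, Pex14 and Pex26 (7.32%, against 13.6% of all). Each of these matches lies on the strand opposite to the gene. A match is a description of letters, and sites farther away lie outside these windows.

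**Figure D2:**
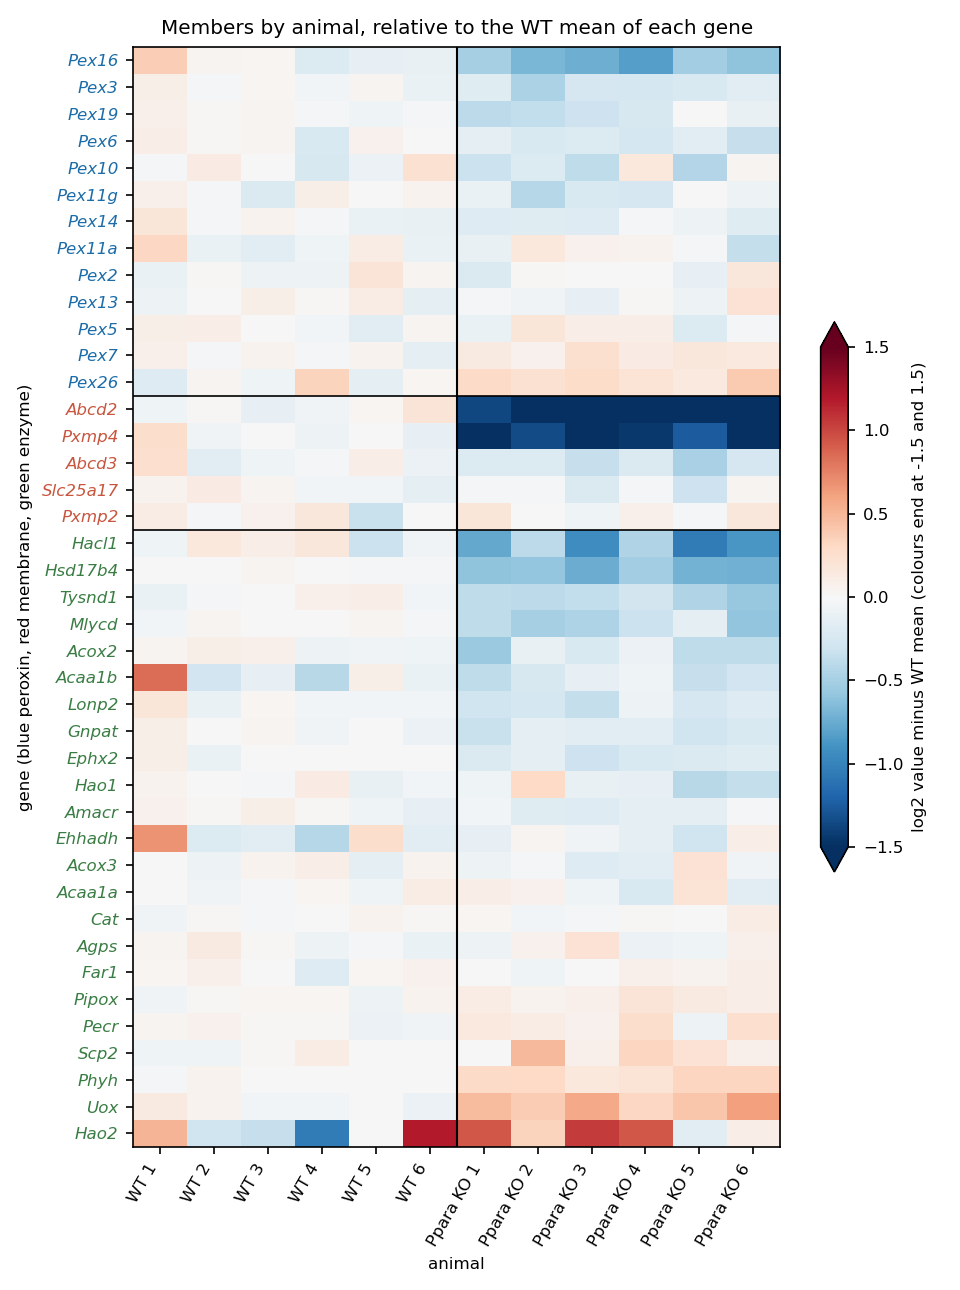
Each member (rows, ordered by class and by difference) in each of the 12 animals (columns), as the log2 value minus the WT mean of that gene; colours end at -1.5 and 1.5. Abcd2, Pxmp4, Hacl1, Hsd17b4 and Pex16 are below the WT mean in all 6 Ppara KO animals, and WT 1 is above it for Acaa1b, Ehhadh and Pex16.

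Of the 3 genes that place proteins into the peroxisomal membrane 2 fell, where 5.83% of all clusters fell, and so small a group was not tested as a set. PEX16 recruits PEX3 to the membrane, PEX3 is the docking site, and PEX19 is the chaperone that brings membrane proteins to it. Pex16 had log2 values of 6.92 to 7.49 in WT (median 7.09), while Ppara KO ran from 6.30 to 6.63, with a median of 6.48. The groups did not overlap, WT 1 was the highest animal, and the difference was -0.65 ± 0.094 (SE, adjusted p 4.17e-04). Without WT 1 it was -0.57 (adjusted p 4.89e-04). Pex3 had values of 8.74 to 8.93 in WT (median 8.84), while Ppara KO ran from 8.36 to 8.67 (median 8.6). The groups did not overlap here either, and the difference was -0.26 ± 0.067 (adjusted p 0.0198). The Pex3 call ended without WT 1, 3 and 5 together (-0.21, limma adjusted p 0.226). It also ended with the replicate number as a block and in a test against a 1.2-fold change. Pex19 had a difference of -0.24 ± 0.075 that was not called (adjusted p 0.0548). Its 6 WT values of 8.56 to 8.70 overlapped the Ppara KO range of 8.23 to 8.63 through Ppara KO 5, and without that animal Pex19 was called.

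The 8 peroxins of matrix protein import gave 0 calls by limma, with 2 lower and 2 higher at an unadjusted p under 0.05. Pex5 and Pex7, the import receptors for C-terminal and N-terminal targeting signals, had differences of 0.0091 ± 0.078 and 0.15 ± 0.060. Pex13 and Pex14, the docking proteins, had -0.0078 ± 0.072 and -0.15 ± 0.067. Pex2 and Pex10, RING proteins that ubiquitinate the receptor for its return to the cytosol, had -0.025 ± 0.076 and -0.19 ± 0.11. Intervals of 95% for these 6 genes ran from -0.43 at the lowest, for Pex10, to 0.28 at the highest, for Pex7.

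Of these 8 peroxins, the pair that extracts the import receptor had the smallest adjusted p-values, with differences of opposite sign. Pex6, an ATPase, had a difference of -0.22 ± 0.069 (adjusted p 0.0512), and Pex26, its membrane anchor, one of 0.26 ± 0.085 (adjusted p 0.0693). WT 4 was the lowest WT animal for Pex6 at 7.06, against 7.29 to 7.39 in the other 5, and the highest for Pex26 at 6.67, against 6.15 to 6.38. Without WT 4 both were called, Pex6 lower and Pex26 higher.

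The PEX11 genes, which act in elongation and division of peroxisomes, were not called. Pex11a, a textbook PPARα target that fibrates induce, had log2 values of 7.15 to 7.63 in WT (median 7.24), while Ppara KO ran from 6.96 to 7.47 (median 7.34). The ranges overlapped widely, with WT 1 the highest animal of all, and the difference of -0.038 had a 95% interval of -0.25 to 0.17. Pex11g had a difference of -0.18 ± 0.081 (adjusted p 0.192).

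Among the transporters, Abcd2 had values of 8.81 to 9.12 in WT (median 8.92), while Ppara KO ran from 6.13 to 7.57, with a median of 6.78. No Ppara KO animal came within a log2 unit of a WT animal, and the difference was -2.10 ± 0.18 (adjusted p 2.28e-06). The spread was wider in Ppara KO (SD 0.49, n = 6) than in WT (SD 0.11, n = 6), with Ppara KO 1 the highest at 7.57 and Ppara KO 2 the lowest at 6.13. Abcd2 is 53 protein-coding genes after Ppara on the same chromosome, in the RefSeq gene order of GRCm38.p6. Slc25a17, a carrier of coenzyme A and other cofactors into peroxisomes, is 82 such genes before Ppara and had a difference of -0.098 ± 0.074 (adjusted p 0.486). The part that this linkage has in the Abcd2 difference was not tested.

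Abcd3, the abundant ABC transporter of branched and dicarboxylic acyl-CoAs, fell by 0.28 on the log2 scale (SE 0.080, adjusted p 0.0351). Its values were 10.13 to 10.54 in WT (median 10.25), while Ppara KO ran from 9.80 to 10.09 (median 10.06). The groups did not overlap, but the gap between them was narrow. The call ended without any 1 of WT 1, 3, 4 or 5 and Ppara KO 3, 5 or 6, and without WT 1 the difference was -0.23 (adjusted p 0.0717).

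Pxmp4 had values of 10.41 to 10.80 in WT (median 10.51), while Ppara KO ran from 8.69 to 9.29, with a median of 8.99. All Ppara KO animals lay more than a log2 unit below every WT animal, and the difference was -1.55 ± 0.10 (adjusted p 2.20e-07), the smallest adjusted p of the 41 genes. Pxmp2, which forms a channel for small solutes in the same membrane, ran from 8.53 to 9.03 in WT, and from 8.79 to 9.04 in the knockouts. Its difference of 0.051 had a 95% interval of -0.13 to 0.23.

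**Figure D3:**
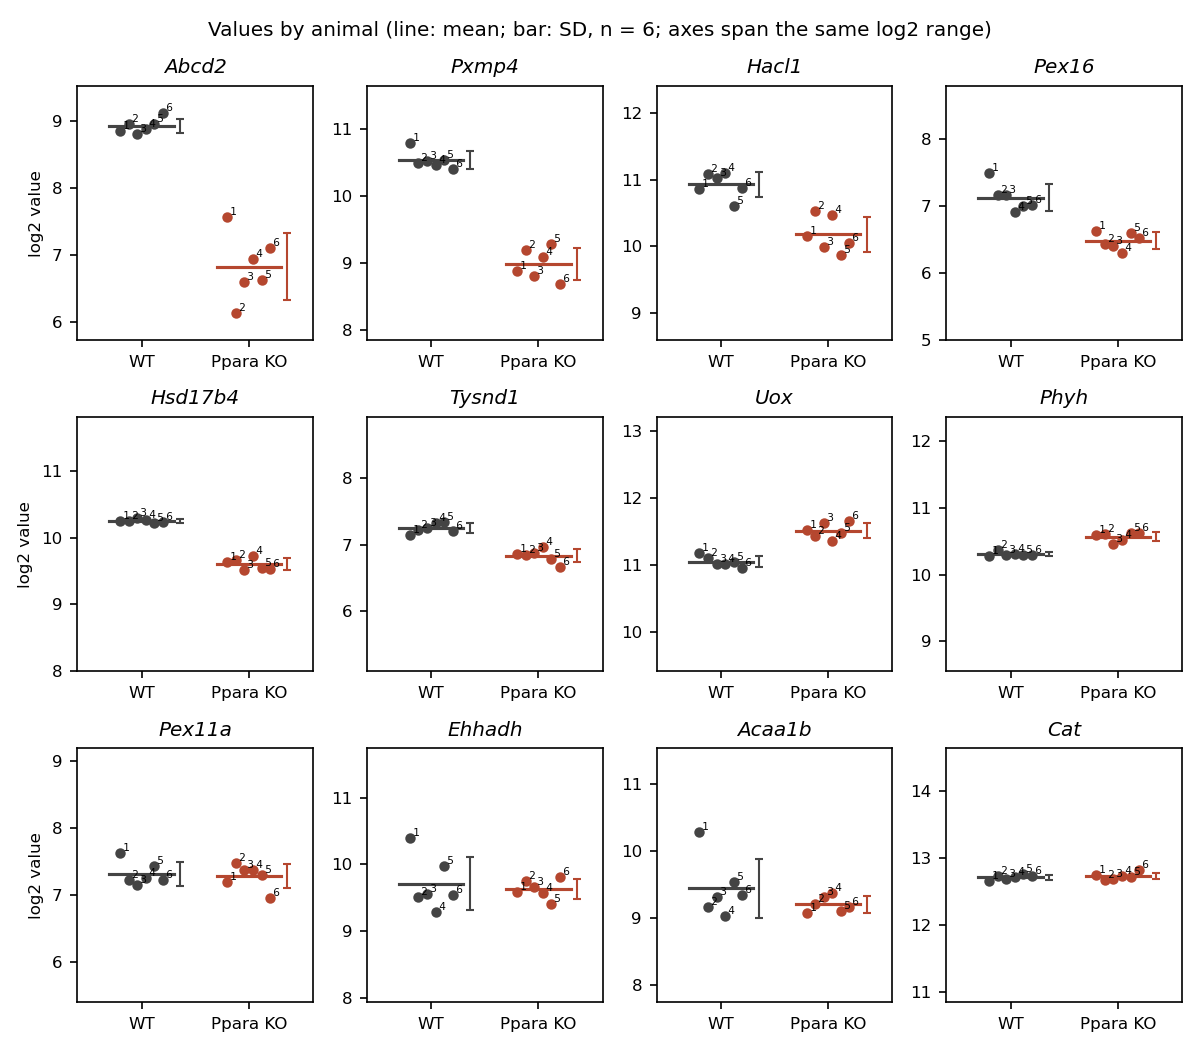
Log2 values of 12 members in each animal, WT in grey and Ppara KO in red, with the animal's number, the mean as a line and the SD as a bar (n = 6 each); each panel spans the same log2 range around its own centre. Abcd2, Pxmp4, Hacl1, Pex16, Hsd17b4 and Tysnd1 separate downwards and Uox and Phyh upwards, while Pex11a, Ehhadh, Acaa1b and Cat overlap, with WT 1 high for Acaa1b and Ehhadh.

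In the beta-oxidation pathway itself 2 of 8 genes fell and 0 rose (limma, with 2 lower and 1 higher at an unadjusted p under 0.05). Hsd17b4 encodes the D-bifunctional protein, which hydrates and dehydrogenates the intermediates of very long chain and branched acids. Its values were 10.22 to 10.29 in WT (median 10.24), while Ppara KO ran from 9.51 to 9.73 (median 9.59). The WT animals were nearly identical (SD 0.025, n = 6), no value overlapped, and the difference was -0.64 ± 0.059 (adjusted p 5.36e-06). Acox2, the oxidase of bile acid intermediates and branched acyl-CoAs, fell by 0.29 (SE 0.083, adjusted p 0.0347), with 8.70 to 8.86 in WT (median 8.77), while Ppara KO ran from 8.22 to 8.69 (median 8.47). The groups were only just apart, and the Acox2 call ended without any 1 of WT 1, 2 or 3 and Ppara KO 1, 3, 5 or 6.

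Ehhadh, the L-bifunctional protein and a textbook PPARα target, did not separate the genotypes. It had values of 9.29 to 10.39 in WT (median 9.56), while Ppara KO ran from 9.41 to 9.81 (median 9.63), so every Ppara KO value lay within the WT range. The difference was -0.081 (95% interval -0.40 to 0.24), and 0.054 without WT 1 (adjusted p 0.841). The WT spread (SD 0.40) came from WT 1 at 10.39 and WT 5 at 9.98, with the other 4 between 9.29 and 9.56.

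Acaa1a and Acaa1b encode closely related thiolases that release acetyl-CoA, and whether a probe of one also matches the other was not tested. Acaa1b had values of 9.03 to 10.28 in WT (median 9.33), while Ppara KO ran from 9.07 to 9.38 (median 9.18). WT 1 at 10.28 stood above the next WT animal at 9.54, and the difference moved from -0.24 (95% interval -0.58 to 0.10) to -0.074 without it. Acaa1a had 6.51 to 6.69 in WT (median 6.57), while Ppara KO ran from 6.35 to 6.78 (median 6.58), with a difference of -0.016 (95% interval -0.18 to 0.15). Neither thiolase gene was called. The remaining genes of the pathway were not called either: Acox3, an oxidase of branched acyl-CoAs (-0.052 ± 0.075), Amacr, the racemase for branched acyl-CoAs (-0.12 ± 0.062), and Scp2, a sterol carrier protein and thiolase gene (0.20 ± 0.082).

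In alpha-oxidation, which removes a single carbon from phytanic acid, the successive enzymes moved in opposite directions. Phyh, the hydroxylase that starts the pathway, had values of 10.28 to 10.36 in WT (median 10.29), while Ppara KO ran from 10.46 to 10.62 (median 10.59). It rose by 0.26 ± 0.056 with no overlap (adjusted p 0.00731). The Phyh call ended without WT 1, 3 and 5 together (0.25, limma adjusted p 0.0967) and in a test against a 1.2-fold change. Hacl1, the lyase that follows, had values of 10.61 to 11.10 in WT (median 10.95), while Ppara KO ran from 9.88 to 10.53 (median 10.11). It fell by 0.74 (SE 0.12, adjusted p 9.82e-04), without overlap, and by 0.32 when its 3 transcript clusters were averaged. Pecr, a reductase of enoyl-CoAs, had a difference of 0.13 ± 0.068 (adjusted p 0.298).

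Of the 5 genes for catalase and the hydrogen peroxide forming oxidases, 1 rose and 0 fell (limma, with 1 higher and 0 lower at an unadjusted p under 0.05). Uox, which oxidises urate, had values of 10.96 to 11.18 in WT (median 11.03), while Ppara KO ran from 11.36 to 11.66 (median 11.50). All Ppara KO animals lay above all WT animals, and the difference was 0.46 ± 0.069 (adjusted p 5.33e-04). Cat, the catalase gene, had 12.66 to 12.76 in WT (median 12.72), while Ppara KO ran from 12.67 to 12.82 (median 12.73). Its difference of 0.020 had a 95% interval of -0.096 to 0.14.

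Pipox, an oxidase of pipecolic acid and sarcosine, was higher in every Ppara KO animal (11.15 to 11.28) than in any WT animal (11.02 to 11.14). It was not called (difference 0.11 ± 0.056, adjusted p 0.259). Hao1, the glycolate oxidase gene, had -0.13 ± 0.10. Hao2, a related oxidase of longer hydroxy acids, had the largest SD of the 41 genes within each genotype (0.77 in WT and 0.51 in Ppara KO, n = 6 each), and ran from 3.56 in WT 4 to 5.80 in WT 6 and from 4.44 to 5.66 in Ppara KO. Its difference of 0.53 had a 95% interval of -0.14 to 1.2.

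Ether lipid synthesis starts with Gnpat, the acyltransferase, and Agps, which exchanges the acyl chain for an alcohol made by the reductase Far1. Gnpat fell by 0.22 (SE 0.061, adjusted p 0.0332), with values of 7.47 to 7.64 in WT (median 7.56), while Ppara KO ran from 7.22 to 7.41 (median 7.36). No value overlapped, but the Gnpat call ended without any 1 of WT 1, 2, 3 or 5 and Ppara KO 1, 5 or 6. Agps and Far1 had differences of 0.023 ± 0.072 and 0.031 ± 0.064.

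Both genes of other lipid reactions fell. Mlycd, the malonyl-CoA decarboxylase that also works in mitochondria, had 7.20 to 7.28 in WT (median 7.24), while Ppara KO ran from 6.65 to 7.11 (median 6.82), a difference of -0.40 ± 0.074 (adjusted p 0.00283). The narrow WT range lay above every Ppara KO animal. Ephx2, the soluble epoxide hydrolase, had 10.32 to 10.51 in WT (median 10.42), while Ppara KO ran from 10.11 to 10.27 (median 10.20), a difference of -0.22 ± 0.057 (adjusted p 0.0252). The groups did not overlap, and the Ephx2 call ended without WT 1, WT 3 or Ppara KO 3.

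Both peroxisomal protease genes fell as well. Tysnd1, whose product trims imported beta-oxidation enzymes, had 7.14 to 7.34 in WT (median 7.23), while Ppara KO ran from 6.67 to 6.97 (median 6.86), a difference of -0.41 ± 0.066 (adjusted p 0.00100) without overlap. Lonp2, the Lon protease of the matrix, had 9.51 to 9.79 in WT (median 9.57), while Ppara KO ran from 9.25 to 9.53 (median 9.35). Ppara KO 4, at 9.53, lay just above WT 2, at 9.51, and the difference was -0.24 ± 0.068 (adjusted p 0.0360). The Lonp2 call ended without any 1 of WT 1, 3, 5 or 6, and without any 1 of Ppara KO 1, 2, 3, 5 or 6.

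Separation of the animals was counted apart from the model. In 12 of the 41 genes all 6 Ppara KO values lay below all 6 WT values, which was so for 3.79% of all clusters, and in 3 genes, Phyh, Uox and Pipox, they lay above, as for 2.74% of clusters. The 12 were the 13 genes that fell, less Lonp2. WT 1 was the highest of the WT animals in 15 of the 41 genes, and in 7 of the 13 peroxins, while the other WT animals were highest in 2 to 7. In Ppara KO the number ran from 3 to 10 of the 41 genes per animal.

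**Figure D4:**
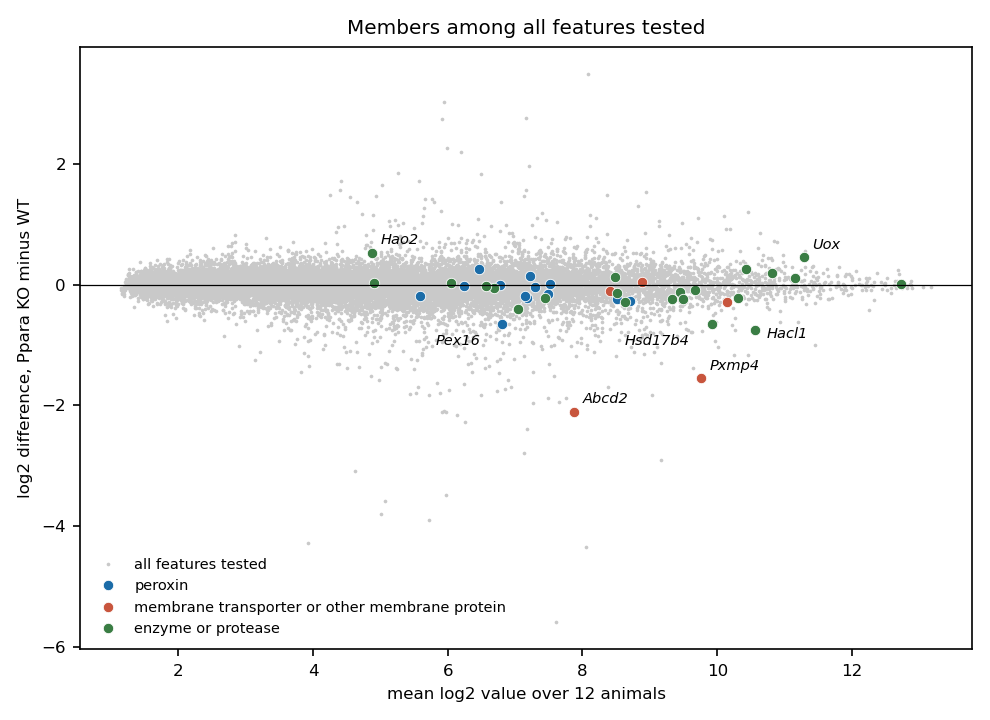
Mean log2 value over the 12 animals (x axis) and log2 difference, Ppara KO minus WT (y axis), of the 22850 clusters tested in grey and of the 41 members in colour by class. The members lie at or above the median level, and Abcd2 (-2.10) and Pxmp4 (-1.55) are the members farthest below 0.

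A list of 38 other peroxisomal genes was read beside the members. Of these, 11 fell (28.9%) and 4 rose (10.5%), with a median difference of -0.09, against 5.83% and 4.58% of all clusters. Of the 38 genes 35 lie at or above the median level, and among clusters of that kind fitted alone 13.9% fell and 11.5% rose. Named here are the 8 called genes with the largest differences, and some relatives of theirs. Decr2, a dienoyl-CoA reductase gene, fell by 1.38 (SE 0.073), Eci2, which encodes an isomerase of enoyl-CoAs, by 0.71 (SE 0.089), and Ech1, which encodes one of dienoyl-CoAs, by 0.67 (SE 0.091). Eci3, another isomerase gene of enoyl-CoAs, had -0.22 ± 0.19 and was not called (adjusted p 0.554). Crot and Crat, the acyltransferases that export shortened chains as carnitine esters, fell by 0.61 each (SE 0.11 and 0.18), and Hsdl2, a dehydrogenase-like gene, by 0.67 (SE 0.12).

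The thioesterase genes Acot3 and Acot4, which release free acids from acyl-CoAs, rose by 0.80 ± 0.19 and 0.70 ± 0.11. Of their family, Acot8, measured by a cluster annotated jointly with Snx21, fell by 0.50 (SE 0.091, adjusted p 0.00232), and Acot5 had -0.097 ± 0.066 and was not called. By limma, Decr2 had the smallest adjusted p of these 8 genes (2.20e-08) and Crat the largest (0.0401). The call of Crat ended without any 1 of WT 1, 3 or 5 and Ppara KO 1, 3, 5 or 6. Crat was at 8.38, 8.0 and 8.46 in WT 1, 3 and 5, the WT animals with the higher adipocyte marker means, and at 7.70 to 7.82 in the other 3. Leaving those animals out together gave -0.35 for Crat (adjusted p 0.376), and averaging its 2 clusters gave -0.29 (adjusted p 0.128). Acot3 was not called without those animals either (0.73, adjusted p 0.113). Dnm1l, the dynamin-like GTPase that divides peroxisomes and mitochondria, fell by 0.27 (SE 0.060, adjusted p 0.00880), while the fission adaptors Fis1 (0.092 ± 0.068) and Mff (-0.067 ± 0.073) were not called. Slc27a2, a very long chain acyl-CoA synthetase gene, had -0.055 ± 0.069 and was not called either.

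**Figure D5:**
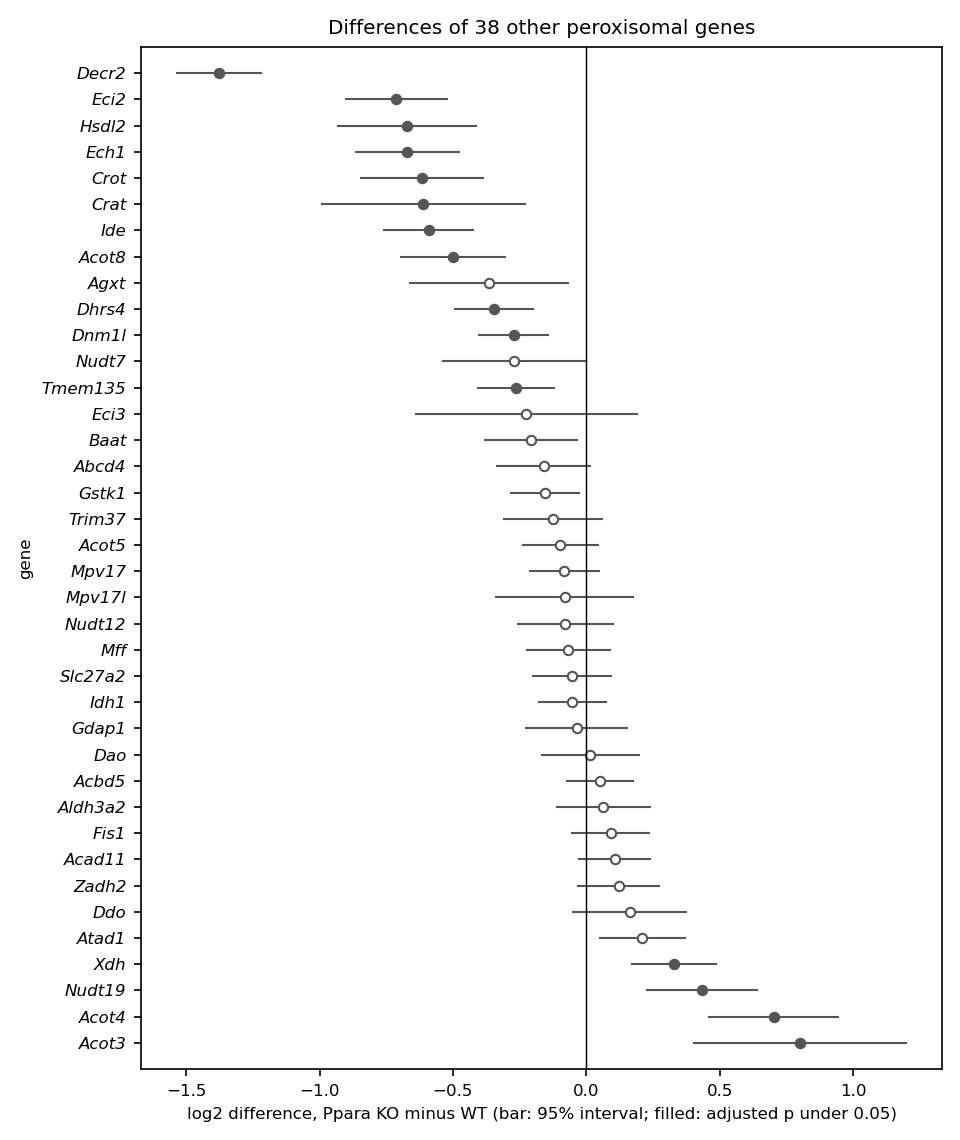
Log2 difference, Ppara KO minus WT, with the 95% interval for the 38 other peroxisomal genes measured; filled points passed an adjusted p of 0.05 in limma. Decr2 (-1.38) lies lowest, and Acot3 (0.80) and Acot4 (0.70) highest.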

How the data were processed

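Total RNA of 12 livers, 6 WT and 6 Ppara KO, was read on 1-colour arrays. The authors deposited log2 values, made with RMA and Partek, per the submitters' processing notes. Neither a version nor a genome build is named there. RMA gives the arrays a near common distribution (medians 4.13 to 4.17), so a shift of most genes would not show, and it compresses the differences of dim genes. Precision is limited by the number of arrays.

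The platform annotation gave 23525 clusters 1 symbol and 1810 several, and 16010 are unnamed. For each symbol, alone or in a joined list, the cluster with the highest mean was taken, which left 22850. They were fitted with limma 3.58.1 in R 4.3.3 (lmFit and eBayes, 2-sided, no covariate), with Benjamini-Hochberg adjustment over all of them and calls at 0.05. Errors of differences are limma standard errors. On simulated data of 22850 features, 50 were changed at each of 4 sizes, in independent normal noise. The fit recovered 40% of 1.25-fold, 80% of 1.5-fold, 98% of 2-fold and 100% of 4-fold changes, with 4 false calls among 163. The data gave 2380 calls, so the adjustment was stricter in the simulation. These shares therefore do not give the recovery in the data.

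The members and lists were chosen with earlier results of these data known. Animal values are given for members changed 1.5-fold, for the member with the highest value in each class, for called members that lost a call under an alternative, and for the thiolase genes, taken as a pair from their names because no protein identity was computed. Pex11a, Ehhadh, Hao2, Pipox, Pex6, Pex19, Pex26, Dnm1l, Fis1, Mff, Slc27a2, Eci3, Acot5, Acot8, Marco and the animal WT 1 were singled out after their values were seen. Of the other peroxisomal genes, the 8 called ones with the largest differences are named. Alternatives changed the variance model, the scaling, the choice of clusters, the threshold and the animals included. Same-numbered animals did not deviate together (correlations of -0.047 to 0.048), and the main fit does not pair them. Such correlations cannot exclude that the animals were paired in some way. Protein sequences were not used here.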

Additional observations from a re-analysis of the deposited data

Results flagged for a closer look

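In the 82 sets of 6 values (41 members in each genotype), 6 held an animal whose gap to the nearest other value exceeded Dixon's 95% limit for 6 values, as a share of the range. Chance flags about 5% of such sets, and here the share was 7.32%. In WT, Pxmp4 was at 10.80 in animal 1 against 10.41 to 10.54 in the other 5, and Phyh at 10.36 in animal 2 against 10.28 to 10.30. Pex6 was at 7.06 in WT 4 against 7.29 to 7.39, and Far1, also in WT 4, at 4.69 against 4.89 to 4.96. Pex11g was at 7.02 in WT 3 against 7.22 to 7.32. In Ppara KO, Pex3 was at 8.36 in animal 2 against 8.57 to 8.67. The calls of Pxmp4, Phyh and Pex3 held without the animal named, Pex6 was called without WT 4, and Far1 and Pex11g remained uncalled without theirs.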

How the results depend on the processing

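Under 23 refits, 5 of the 15 called members were called throughout (Pex16, Abcd2, Pxmp4, Hsd17b4 and Hacl1), 10 lost the call at least once, and 3 of the 26 others gained one (Pex6, Pex19 and Pex26). No called member changed direction. Counts outside 1.5 times the reported ones follow. With trend and robust variance, and for clusters at or above the median level, 4 peroxins fell and 1 rose. With array weights, and with arrays centred on their median, 4 peroxins fell, and with quantile normalization repeated 1 rose. Fitted over every cluster on the array, 5 enzymes fell. Treat, a test against a 1.2-fold change, called 344 clusters: 5 members lower and 0 higher, 1 peroxin and 2 enzymes lower, 0 enzymes higher, and 4 of the other peroxisomal genes lower and 1 higher. With an adjusted p under 0.01 the number of all features called was 1116, and 7 members, 1 peroxin and 4 enzymes fell, and 2 of the other peroxisomal genes rose. With a minimum of 1.5-fold these were 528 clusters, 5 members, 1 peroxin, 2 enzymes and 7 other peroxisomal genes lower, and 0 members, 0 enzymes and 2 other peroxisomal genes higher. Without WT 1, 3 and 5 together, which leaves 9 animals, 1064 clusters were called, 7 members, 1 peroxin, 4 enzymes and 7 other peroxisomal genes fell, and 1 member, 1 enzyme and 2 other peroxisomal genes rose. With the replicate number as a block 7 members, 1 peroxin and 4 enzymes fell. The check of pairing found no shared deviation, and of the WT animals only WT 3 correlated best with its own number. Leaving out each animal gave 8 to 13 members, 2 to 3 peroxins and 4 to 8 enzymes lower, and 2 to 3 members and 0 to 1 peroxins higher. The causes were not tested, apart from fewer animals or a stricter threshold. Small changes are limited by 6 animals per genotype, with a median SE of 0.075 over the members.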

Other observations

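Promoter composition of the 3 classes is given as values, with no test. The ratio of observed to expected CpG had a median of 0.80 in 14 windows of peroxins, 0.515 in 23 windows of enzymes and proteases and 0.76 in 4 windows of membrane proteins, against 0.38 over all 32851 windows. A ratio of at least 0.6 was present in 11 of the 14 peroxin windows (78.6%), in 11 of the 23 enzyme windows (47.8%) and in 35.8% of all windows. Of the called genes with a window, Uox (0.45), Phyh (0.495), Pxmp4 (0.42) and both windows of Acox2 (0.092 and 0.16) were below 0.6. Gnpat (0.94), Mlycd (0.78), Hacl1 (0.68), Pex3 (0.90) and both windows of Pex16, Abcd3 and Tysnd1 were above it. Lonp2 had windows on each side (0.25 and 0.73).

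Of the members, 3 have more than 1 transcript cluster. The dimmer cluster of Phyh had a difference of 0.35 ± 0.15, with the same sign as the 0.26 ± 0.056 of the brighter one. For Hacl1, clusters annotated jointly with Btd and with Colq had -0.35 ± 0.067 and 0.13 ± 0.079, against -0.74 for its own, and for Acox3 a cluster annotated jointly with another gene had 0.12 ± 0.092, against -0.052.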
